A study of Ovis aries with 12 samples.

Results

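Voltage-gated sodium and calcium channels let neurons fire and let firing be turned into transmitter release and calcium signals. Each sodium channel has a large pore-forming alpha subunit, encoded by an SCN gene ending in A, and small beta subunits, encoded by an SCN gene ending in B, that tune gating and place the channel in the membrane. Each high-voltage calcium channel has a pore subunit, encoded by a CACNA1 gene, an intracellular beta subunit (CACNB) and an extracellular alpha2delta subunit (CACNA2D) that carries the channel to the surface, while the low-voltage T-type pores can work without them. In the hippocampus these channels set the threshold of the action potential at the axon initial segment, drive release at synapses and shape burst firing.

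The channel genes were taken as every gene of the count table whose symbol is SCN with a number and A or B, CACNA1 with a letter, CACNA2D with a number or CACNB with a number. The rule found 31 of the 33609 genes listed. The 31 are 9 sodium channel alpha subunits, 4 sodium channel beta subunits, 10 calcium channel pores, 4 alpha2delta subunits and 4 calcium channel beta subunits. After the filter on low counts 27 of the 31 remained, among 17806 tested genes. The rule used symbols and no measured value.

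RNA was sequenced from the hippocampus of adult ewes (female sheep) of the Ile-de-France breed, in 4 groups of 3 libraries: dorsal hippocampus of chronically stressed ewes, dorsal hippocampus of control ewes, ventral hippocampus of stressed ewes and ventral hippocampus of control ewes. Each library is an equal mix of RNA from 2 ewes, 6 ewes made up each condition, and both regions came from the same 12 ewes, so that libraries of the 2 regions are not fully independent. The labels abbreviate the dorsal samples as DG, and neither whether only dentate gyrus was cut out nor how the ewes were stressed is given in the sources used here. These are bulk samples, so fewer cells of a type and less RNA per cell cannot be told apart.

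Libraries held 12254743 to 53775720 counts. Depth differed between conditions in dorsal tissue, at 12254743 to 21244822 counts in dorsal stress and 24952808 to 53775720 in dorsal control libraries. Libraries of 1 group also stood apart from each other. The first principal component of log2 CPM (counts per 1000000 counts of the library) held 50.04% of the variance and ran, within ventral control alone, from -103 in library 1 over -21.0 in library 2 to 105 in library 3. The 8 listed markers of all neurons summed to 5699 to 8323 CPM in dorsal stress, 5616 to 7662 in dorsal control, 6316 to 8537 in ventral stress and 5748 to 8262 CPM in ventral control libraries, and 0 of the 8 were called between regions. The 6 listed markers of dentate granule cells summed to 132 to 346 CPM in dorsal stress, 146 to 368 in dorsal control, 189 to 398 in ventral stress and 95.2 to 400.3 CPM in ventral control libraries, and 2 of the 6 were lower in dorsal tissue. Levels below are CPM of the library total. CPM is not corrected for gene length, so levels are compared between libraries and not between genes.

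The first question was which channel genes differ between dorsal and ventral hippocampus. Averaged over stressed and control ewes, 3 of the 27 tested channel genes were lower in dorsal tissue and 0 were higher. Among the 3 were the alpha2delta subunit CACNA2D2 and the L-type calcium channel pore CACNA1S. All were tested in a single fit of the 12 libraries with the quasi-likelihood test of edgeR, with Benjamini-Hochberg adjustment over the 17806 genes and a call at an adjusted p under 0.05. The 3 genes are 11.1% of the tested channel genes, beside 4.51% of all tested genes called in either direction, 1.44% called higher and 3.07% called lower. The median log2 fold change, dorsal over ventral, was -0.18 over the 27 channel genes and -0.02 over all tested genes. Whether these shares differ was not tested.

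CACNA2D2 encodes alpha2delta-2, an auxiliary subunit that binds gabapentin and is best known from the mouse cerebellum, where its loss causes ataxia and seizures. It stood at 8.90, 8.87 and 9.71 CPM in dorsal stress libraries 1 to 3 and at 7.44, 7.31 and 9.10 CPM in dorsal control, against 17.2, 21.5 and 24.6 CPM in ventral stress and 13.7, 23.2 and 27.04 CPM in ventral control. The 6 dorsal libraries lay below the 6 ventral ones. For CACNA2D2 and CACNA1S the dorsal libraries were lower in both conditions without overlap, as they were for 3.66% of all tested genes. The log2 fold change of CACNA2D2 was -1.29 ± 0.17 (SE, edgeR adjusted p = 0.00263), which is 2.45-fold lower in dorsal than in ventral tissue. The counts behind these values ran from 119 to 937 per library. The call held in each of the 23 alternative analyses, including all 12 that left out 1 library, where the adjusted p of edgeR was at most 0.01402. Of the variance of CACNA2D2 over the 12 libraries 10.6% lay within groups, against a median of 75.8% for the tested channel genes and 83.9% for all tested genes. This share uses the same libraries and groups as the call, so it adds no separate support.

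CACNA1S encodes the L-type pore that couples excitation to contraction in skeletal muscle. It stood at 1.55, 1.83 and 1.22 CPM in dorsal stress and 1.79, 1.11 and 2.204 CPM in dorsal control, against 3.49, 3.13 and 3.05 CPM in ventral stress and 4.9995, 4.70 and 2.34 CPM in ventral control. Dorsal and ventral libraries did not overlap, although ventral control 3 lay close to dorsal control 3. The log2 fold change was -1.14 ± 0.27 (edgeR adjusted p = 0.0403), 2.21-fold lower in dorsal tissue, on 15 to 227 counts per library. The call held in 1 of the 12 analyses that left out a library, the one without ventral control 3, and the adjusted p of edgeR was at most 0.1096 in the others. Of all 23 alternative analyses 7 kept the call. It was lost with no filter, with a replicate block within condition and with neuron markers in the model. With the mean level of choroid plexus markers added to the model the log2 fold change was -0.68 ± 0.51 (edgeR adjusted p = 0.3098). Choroid plexus markers themselves differed between regions, and the reason for this change was not tested.

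**Figure D1:**
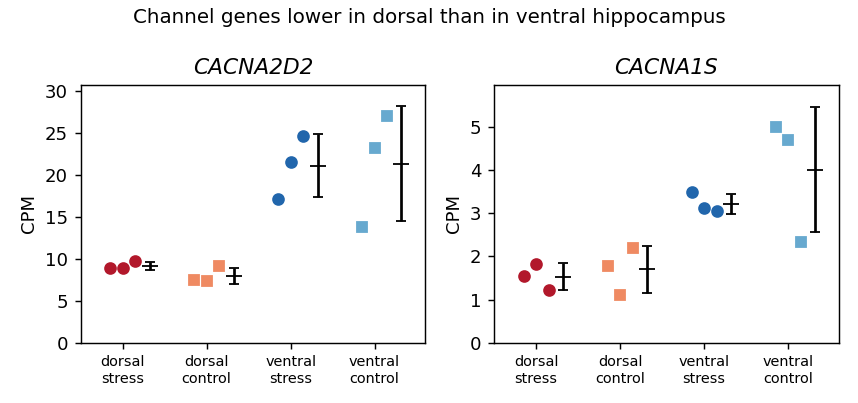
CPM (vertical axes, from 0) of CACNA2D2 and CACNA1S by group along the horizontal axis; each point is 1 library of 2 pooled ewes, ordered 1 to 3, and the bar to its right is the mean with SD (n = 3). The 6 dorsal libraries lie below the 6 ventral ones for both genes, with the smaller gap for CACNA1S.

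Several cell type marker lists moved between the same libraries. Inhibitory neuron markers were called lower in dorsal tissue in 3 of 7 tested genes, and their summed level was 279 to 313 CPM in dorsal stress and 259 to 319 in dorsal control, against 406 to 481 in ventral stress and 345 to 458 CPM in ventral control. SST, a defining marker of that list, was at 0 in all 12 libraries, while GAD1, LHX6, PVALB and VIP had counts in each. Whether reads of SST were missed in the counting was not tested, so no lack of expression is drawn from this. Meningeal fibroblast markers were lower in 5 of 6, at 155 to 163 and 133 to 228 CPM in dorsal stress and control against 448 to 576 and 299 to 568 CPM in ventral stress and control. Subiculum markers were lower in 4 of 5, thalamus markers in 3 of 6 and striatum markers in 3 of 7. SLC17A6 is in both the subiculum and the thalamus list, so their counts are not independent. Excitatory neuron markers were higher in 3 of 7. Their sums were 4220 to 4640 and 3583 to 3980 CPM in dorsal stress and control. In ventral stress and control they were 2473 to 3426 and 2531 to 2667 CPM. Of all tested genes 3.07% were called lower in dorsal tissue and 1.44% higher. Choroid plexus markers were higher in 3 of 9, at 373 to 1018 and 720.0 to 2698 CPM in dorsal stress and control against 77.1 to 97.0 and 77.8 to 397 CPM in ventral stress and control. TTR had 252280 counts over the 12 libraries and F5, the next marker of that list, 4931, so TTR weighs most in these sums. Oligodendrocyte markers were higher in 1 of 7, at 6295 to 11022 and 7934 to 11221 CPM in dorsal stress and control against 4352 to 5171 and 3873 to 7692 CPM in ventral stress and control.

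Striated muscle markers, listed because CACNA1S is a muscle channel, were called in 0 of 5 tested genes. They summed to 4.85 to 13.5 CPM in dorsal stress and 3.80 to 7.85 in dorsal control, against 8.06 to 26.5 in ventral stress and 6.18 to 21.1 CPM in ventral control. The median log2 fold change of the 5 tested markers was -1.05, dorsal over ventral. The muscle creatine kinase CKM was at 0 in 8 of 12 libraries and TTN in 3, while ACTA1, TNNT2, TNNI1 and MYL2 had counts in every library. The part of any of these cell types in the lower dorsal levels of CACNA2D2 and CACNA1S was not tested.

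**Figure D2:**
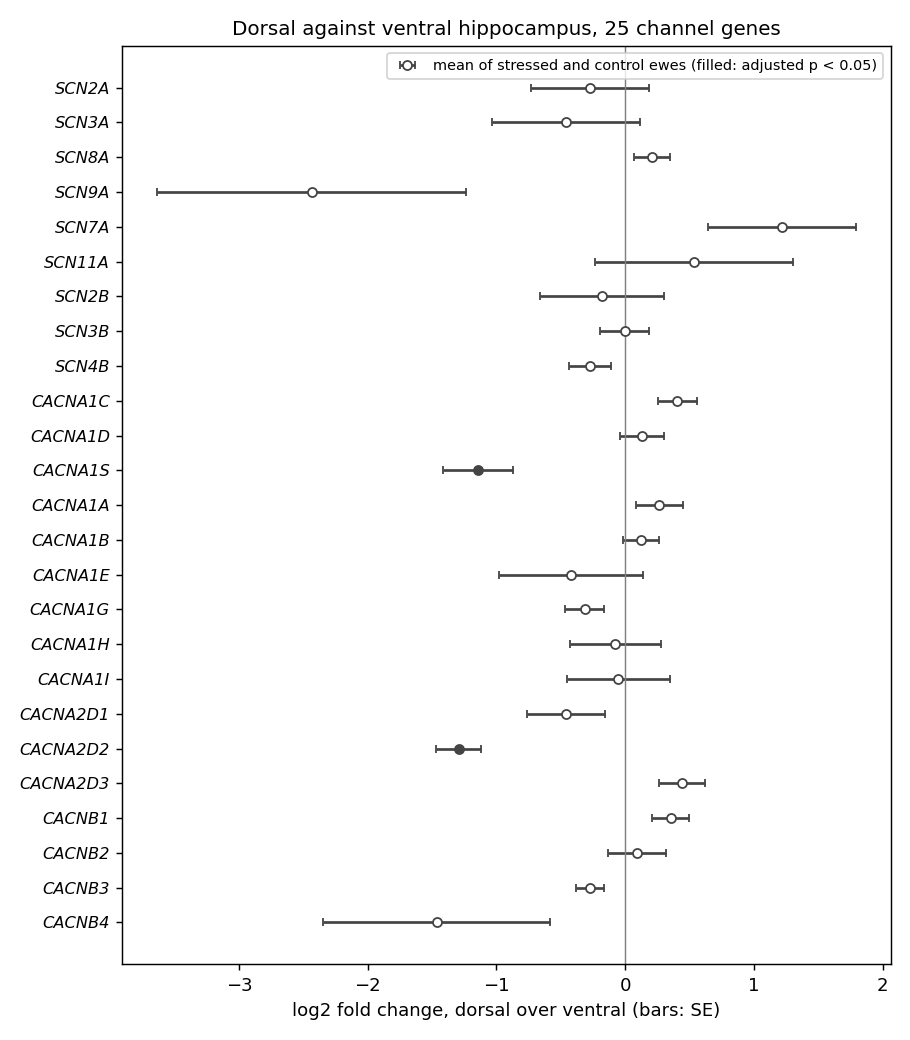
Log2 fold change, dorsal over ventral and averaged over conditions (horizontal axis), of 25 tested channel genes (vertical axis), with SE bars; filled points passed an adjusted p of 0.05. CACNA1S and CACNA2D2 are filled, at -1.14 and -1.29, and the widest bar belongs to SCN9A.

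The sodium channel pores of central neurons did not pass between regions. SCN2A, the pore of excitatory axons early in development and of the proximal initial segment later, averaged 162 ± 89.0 CPM in dorsal stress and 114 ± 43.0 in dorsal control, against 175 ± 113 in ventral stress and 157 ± 141 CPM in ventral control (SD, n = 3 each). SCN8A, the pore that dominates the mature initial segment and nodes of Ranvier, averaged 180.4 ± 19.3 CPM in dorsal stress, 148 ± 6.66 in dorsal control, 139 ± 29.5 in ventral stress and 147 ± 30.5 CPM in ventral control (SD, n = 3 each). SCN3A, the embryonic pore in rodents, had a log2 fold change of -0.46 ± 0.58. Log2 fold changes were -0.27 ± 0.46 for SCN2A and 0.21 ± 0.14 for SCN8A, and the edgeR adjusted p was at least 0.7063 for these 3 pores. An SE of 0.46 to 0.58 for SCN2A and SCN3A leaves a change of 1.5-fold within reach, so their levels cannot be called alike.

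Several sodium channel pores were sparse. SCN9A, a pore of sensory neurons, had 0 counts in dorsal stress 1 and dorsal control 1 and its highest level, 4.91 CPM, in ventral control 3. Its log2 fold change of -2.44 ± 1.20 did not pass (edgeR adjusted p = 0.4334). SCN7A encodes a sodium sensor related to these pores. It stood at 0.0941 to 0.783 CPM in dorsal stress, 0.641 to 1.16 in dorsal control, 0.0401 to 0.362 in ventral stress and 0.317 to 0.440 CPM in ventral control (log2 fold change 1.22 ± 0.57, edgeR adjusted p = 0.3971). SCN11A, another sensory neuron pore, lay between 0 and 0.974 CPM with a log2 fold change of 0.53 ± 0.77. SCN4A of skeletal muscle had 2 counts in all and SCN10A of sensory neurons 15, and neither was tested.

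SCN1A, the pore of fast inhibitory interneurons, appeared in the table only under a placeholder name, which the RefSeq gene table of sheep pairs with that symbol, and so falls outside the rule. It stood at 1.04, 1.25 and 2.45 CPM in dorsal stress and 1.19, 1.83 and 0.962 CPM in dorsal control, against 1.36, 0.923 and 3.89 CPM in ventral stress and 0.440, 1.01 and 6.09 CPM in ventral control. The groups overlapped (log2 fold change -0.63 ± 0.61, edgeR adjusted p = 0.904). These levels rest on 20 to 211 counts per library, and an uncharacterised locus overlaps the gene. Whether reads of SCN1A were missed in the counting was not tested, so no low expression is drawn from this.

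None of the 4 sodium channel beta subunits passed. SCN4B, which is linked to the pore by a disulfide bond and promotes resurgent current, had -0.27 ± 0.16. SCN3B had -0.00 ± 0.19 and SCN2B -0.18 ± 0.48.

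Among the other calcium channel pores, CACNA1C came nearest to a call. It encodes the main L-type pore of brain and heart, through which neuronal activity reaches the nucleus. It stood at 53.8, 39.1 and 46.0 CPM in dorsal stress and 51.5, 41.4 and 40.3 CPM in dorsal control, against 34.2, 32.7 and 35.3 CPM in ventral stress and 39.0, 33.8 and 32.8 CPM in ventral control. Within each condition the dorsal libraries lay above the ventral ones, as they did for 2.51% of all tested genes, but the log2 fold change of 0.40 ± 0.15 did not pass (edgeR adjusted p = 0.2197). The other L-type pore of neurons, CACNA1D, had 0.13 ± 0.17, and CACNA1F of the retina, with 71 counts in all, was not tested.

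The 3 pores that drive transmitter release, CACNA1A (P/Q-type), CACNA1B (N-type) and CACNA1E (R-type), had log2 fold changes of 0.26 ± 0.18, 0.13 ± 0.14 and -0.42 ± 0.56. CACNA1B averaged 101 ± 11.5 CPM in dorsal stress and 95.2 ± 17.2 in dorsal control, against 96.4 ± 13.1 in ventral stress and 85.0 ± 22.4 CPM in ventral control (SD, n = 3 each). The 3 T-type pores, which open near the resting potential and support bursts, gave -0.31 ± 0.15 for CACNA1G, -0.08 ± 0.35 for CACNA1H and -0.05 ± 0.40 for CACNA1I. The dorsal stress libraries of CACNA1G lay below the ventral stress ones (36.6, 38.8 and 23.9 CPM against 48.1, 45.2 and 39.7 CPM in ventral stress) and the regions overlapped in control ewes. None of these 6 genes passed.

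The other auxiliary subunits of calcium channels pointed either way. CACNB1, a beta subunit of skeletal muscle and brain channels, stood at 136, 104 and 107 CPM in dorsal stress and 108, 90.8 and 101 CPM in dorsal control, against 96.3, 86.3 and 78.0 CPM in ventral stress and 89.2, 90.5 and 70.0 CPM in ventral control. The dorsal libraries lay above the ventral ones within each condition, yet the log2 fold change of 0.35 ± 0.14 did not pass (edgeR adjusted p = 0.2716). CACNA2D3, an alpha2delta subunit of brain, stood at 65.1, 94.6 and 92.4 CPM in dorsal stress and 59.5, 109 and 83.6 CPM in dorsal control, against 81.0, 50.7 and 73.8 CPM in ventral stress and 42.8, 56.2 and 70.4 CPM in ventral control. The regions overlapped in both conditions (log2 fold change 0.44 ± 0.18, edgeR adjusted p = 0.2758).

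CACNB3, a beta subunit that is prominent in brain, had 119, 105 and 109.5 CPM in dorsal stress and 89.5, 85.8 and 95.3 CPM in dorsal control, against 114, 134 and 115 CPM in ventral stress and 127, 129 and 113 CPM in ventral control. Dorsal control lay below ventral control, and the stress libraries of the regions overlapped. Its log2 fold change was -0.27 ± 0.11 over both conditions (edgeR adjusted p = 0.2885) and -0.47 ± 0.16 in control ewes (0.2992). CACNB4, a beta subunit whose loss causes epilepsy in mice, had -2.89 ± 1.30 in control ewes (edgeR adjusted p = 0.5733), and 0.09 without ventral control 3. CACNA2D1, the other target of gabapentin, had -0.46 ± 0.30, CACNB2 0.09 ± 0.23 and CACNB4 -1.46 ± 0.88 over both conditions. CACNA2D4 had 12 counts in all and was not tested. Over both conditions 7 channel genes had an unadjusted p under 0.05, beside 13.7% of all tested genes.

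The region comparison within each condition rests on 3 against 3 libraries. In stressed ewes edgeR called 0 of 27 channel genes (0.444% of all tested genes were called), with 5 at an unadjusted p under 0.05 (7.86%), and DESeq2 called 2, CACNA2D2 among them, while limma-voom called 0. Without overlap, 3 channel genes were higher in dorsal stress (4.95% of all tested genes) and 4 were lower (8.79%). In control ewes edgeR called 1 gene lower, CACNA2D2 (1% of all tested genes were called and 0.753% were called lower), with a log2 fold change of -1.43 ± 0.25 and an edgeR adjusted p of 0.02488. There 4 channel genes had an unadjusted p under 0.05 (8.67%), 3 were higher without overlap (5.65%) and 4 lower (5.59%). Leaving out dorsal stress 2, or any of the dorsal control libraries, or ventral control 2 or 3, ended that call (edgeR adjusted p up to 0.1553). In stressed ewes CACNA2D2 had -1.16 ± 0.25 (edgeR adjusted p = 0.08339), and the test of the difference between conditions gave 0.26 ± 0.34 (edgeR adjusted p = 1).

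CACNA1S had a log2 fold change between regions of -1.02 ± 0.39 in stressed and -1.27 ± 0.38 in control ewes (edgeR adjusted p = 0.4402 and 0.2132). It passed in neither condition alone.

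The second question was whether chronic stress changed channel genes. By edgeR 0 of 27 channel genes passed in dorsal hippocampus, 0 in ventral hippocampus and 0 in the average of both regions, and 0% of all 17806 tested genes were called in each. None had an unadjusted p under 0.05 in edgeR in any of these comparisons, where 0.854%, 0.797% and 1.73% of all tested genes did. DESeq2 and limma-voom called 0 channel genes as well, with at most 1 at an unadjusted p under 0.05 per comparison. The median log2 fold change, stress over control, was 0.12 over the channel genes and 0.01 over all tested genes in dorsal tissue, and -0.04 against -0.03 in ventral tissue.

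The precision of the stress comparison varied by gene. The SE of a log2 fold change ran from 0.16 to 1.78 in dorsal tissue with a median of 0.32, so that a change of 1.5-fold would be under 2 SE for a typical channel gene. All dorsal stress libraries are shallower than all dorsal control libraries.

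In 4 channel genes the dorsal stress libraries all lay above the dorsal control ones, beside 1.92% of all tested genes, and none passed. CACNB3 stood at 119, 105 and 109.5 CPM in dorsal stress, against 89.5, 85.8 and 95.3 CPM in dorsal control (log2 fold change 0.32 ± 0.16). SCN4B stood at 28.2, 27.1 and 31.8 CPM in dorsal stress, against 17.5, 23.4 and 25.6 CPM in dorsal control (0.41 ± 0.23). SCN8A had 181, 161 and 199 CPM in dorsal stress, against 144, 155 and 144 CPM in dorsal control (0.30 ± 0.20). CACNB4 had 0.471, 1.41 and 2.53 CPM in dorsal stress, against 0.223, 0.464 and 0.401 CPM in dorsal control (2.01 ± 1.29). In ventral tissue the same 4 genes had log2 fold changes from -0.85 to 0.19, and stress and control libraries overlapped. In ventral tissue 0 channel genes had stress libraries wholly above or below the control ones, beside 1.59% and 1.12% of all tested genes. Summed excitatory neuron markers also separated in dorsal tissue, at 4220 to 4640 CPM in stress and 3583 to 3980 CPM in control libraries. Listed partners of calcium channels summed to 812 to 827 and 710 to 766 CPM there. No gene of these 2 lists was called, and the sums of the other lists overlapped. The part of cell mix in the 4 channel genes was not tested.

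**Figure D3:**
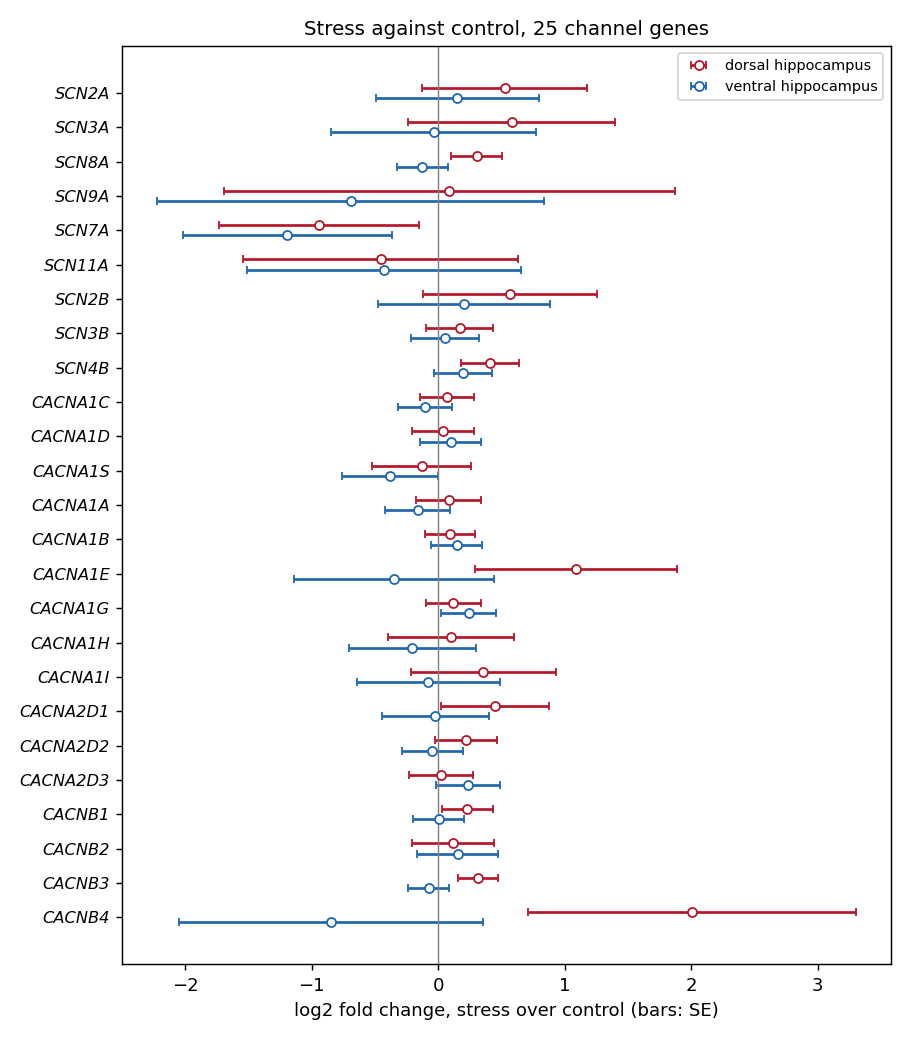
Log2 fold change, stress over control (horizontal axis), of 25 tested channel genes (vertical axis) in dorsal (red) and ventral (blue) hippocampus, with SE bars. All points are open because none passed an adjusted p of 0.05, and the bars of CACNB4 and SCN9A are the widest.

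The third question was whether the stress effect differed between regions. The test of that difference called 0 of 27 channel genes in edgeR, with 0 at an unadjusted p under 0.05 (0.258% of all tested genes), and DESeq2 and limma-voom called 0 too. CACNB3 had a stress effect of 0.32 ± 0.16 in dorsal and -0.08 ± 0.16 in ventral tissue, a difference of 0.39 ± 0.22.

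For many channel genes the spread between libraries of 1 group was larger than any difference between groups. SCN3A stood at 11.1, 22.1 and 43.2 CPM in dorsal stress and 8.81, 24.3 and 18.6 CPM in dorsal control, against 19.6, 13.8 and 52.8 CPM in ventral stress and 6.56, 14.2 and 67.7 CPM in ventral control. The highest ventral control library thus had 10.3 times the level of the lowest. SCN2A spanned 60.5 to 318 CPM, SCN2B 15.1 to 57.8 CPM and CACNA1E 19.5 to 113 CPM in the same group. CACNB4 stood at 0.220, 0.455 and 7.50 CPM there, a ratio of 34.1.

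CACNA1H, a T-type pore, ran the other way across the same libraries. It stood at 74.3, 38.3 and 36.0 CPM in dorsal stress and 64.8, 32.8 and 42.1 CPM in dorsal control, against 51.3, 63.6 and 32.3 CPM in ventral stress and 80.0, 56.4 and 23.9 CPM in ventral control. It was lowest in ventral control 3, where SCN2A, SCN3A and CACNA1E were highest. Within groups lay 99.5% of the variance of CACNA1H, 94.3% of that of SCN3A and 93.2% of that of SCN2A. Ventral control 3 is also the library at the far end of the first principal component. SCN8A, by contrast, spanned 126 to 182 CPM in ventral control, and CACNB3 113 to 129 CPM.

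Other genes spread in the same way between libraries. Among genes with more than 3 counts in each library of ventral control, 13 of 27 channel genes and 56.9% of 16799 tested genes differed by at least 2-fold between the highest and lowest library. The shares were 7 of 24 and 36.1% in dorsal stress, 6 of 26 and 28.2% in dorsal control, and 9 of 26 and 33.3% in ventral stress. Of the 27 channel genes 17 were highest in ventral control 3 within their group, 16 in ventral stress 3, 15 in dorsal stress 3 and 13 in dorsal control 2. The same libraries were the highest of their group for 45.6%, 40.3%, 38.0% and 41.1% of all tested genes. The part of RNA quality or of dissection in this spread was not tested.

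**Figure D4:**
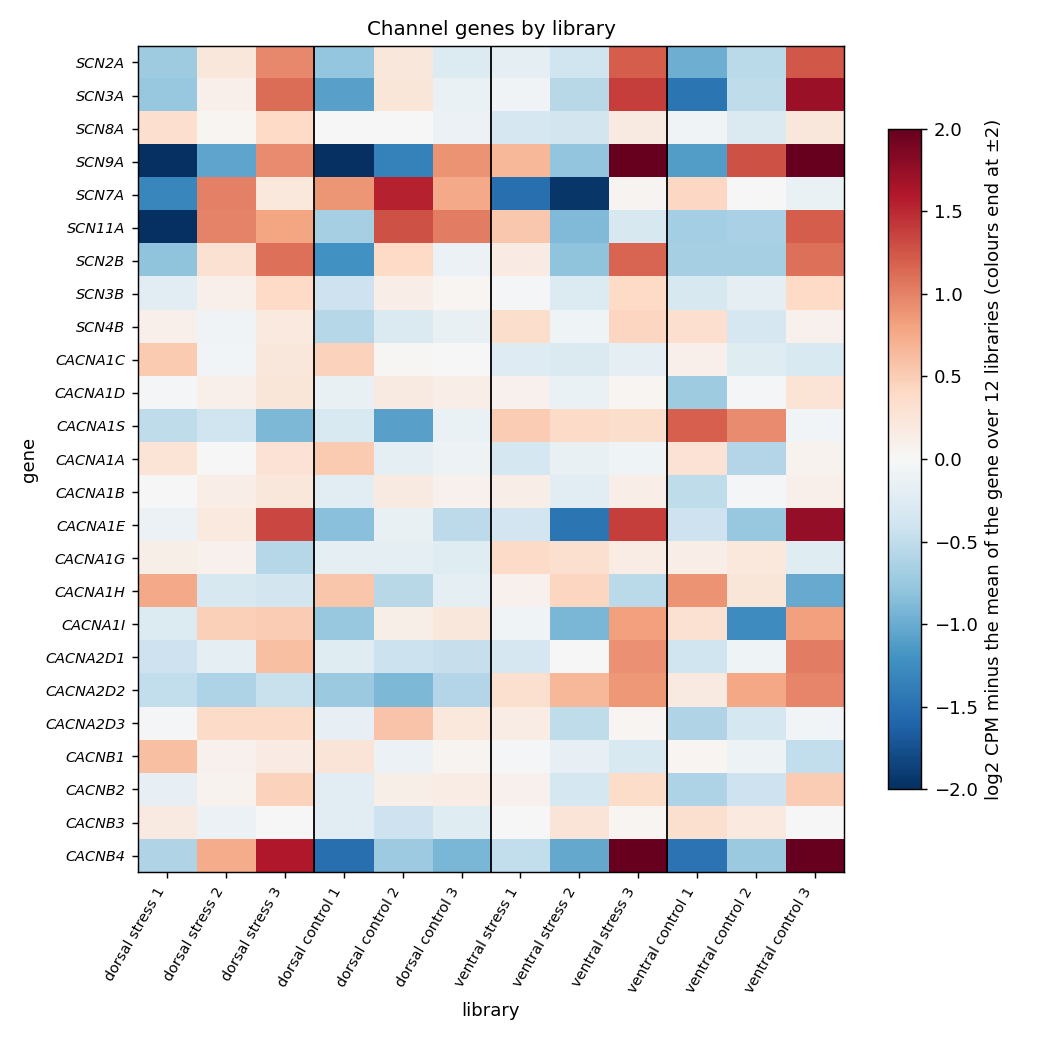
Log2 CPM of 25 tested channel genes (rows) in the 12 libraries (columns, groups parted by black lines), as the difference from the mean of the gene, red above and blue below. SCN2A, SCN3A, SCN2B, CACNA1E and CACNB4 are red in dorsal stress 3, ventral stress 3 and ventral control 3, where CACNA1H is blue, while CACNA2D2 follows the regions.

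**Figure D5:**
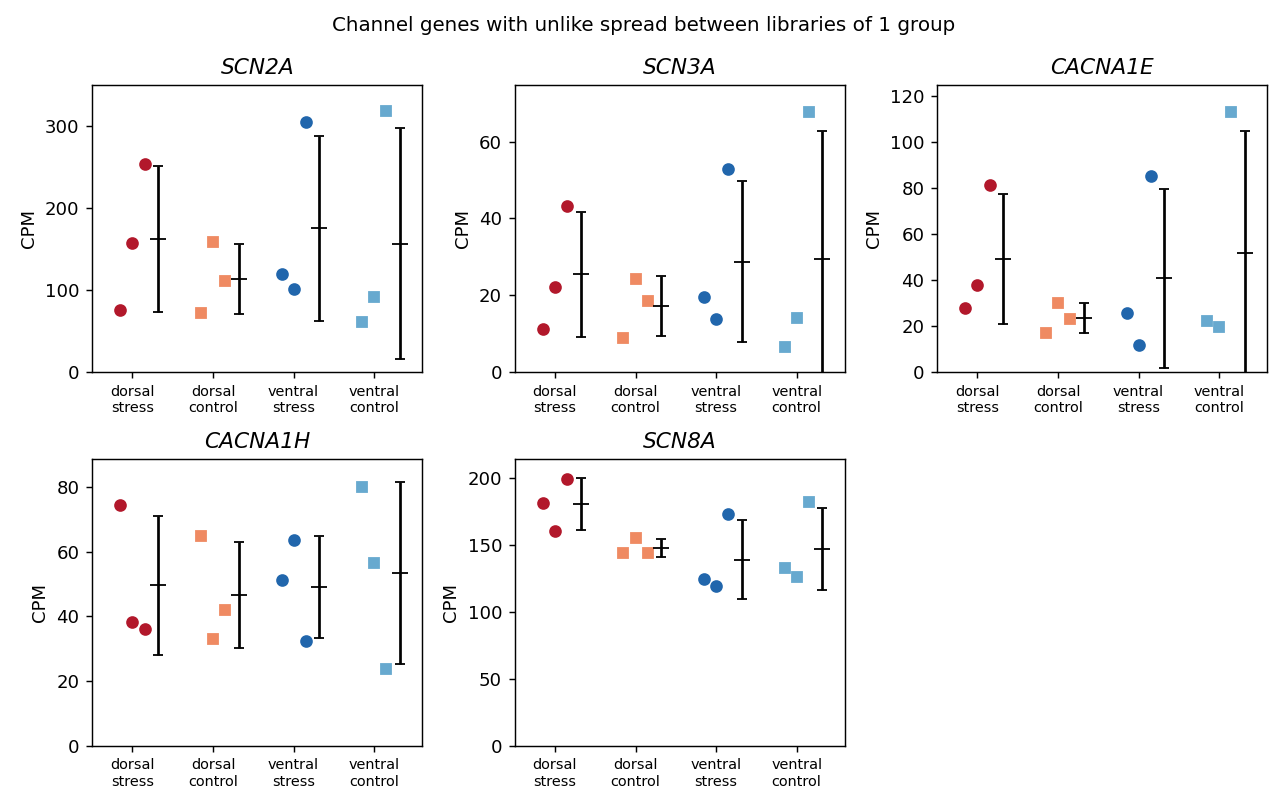
CPM (vertical axes, from 0) of 5 channel genes by group; each point is 1 library, ordered 1 to 3, with mean and SD (n = 3) to its right, and bars that would go below 0 end at the axis. SCN2A, SCN3A and CACNA1E peak in ventral control 3 at 318, 67.7 and 113 CPM, CACNA1H is lowest there at 23.9 CPM, and SCN8A stays between 119.5 and 199 CPM.

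Genes whose products bind or work beside these channels were counted from 4 lists. Of 49 tested partner genes 2 were higher and 2 lower in dorsal than in ventral tissue, beside 4.51% of all tested genes called in that comparison. By edgeR 0 were called for stress over both regions, where 1 had an unadjusted p under 0.05 and DESeq2 and limma-voom called 0. STAC2, an adaptor of L-type channels, averaged 16.4 ± 3.42 CPM in dorsal stress and 14.1 ± 0.114 in dorsal control, against 32.8 ± 1.47 in ventral stress and 30.8 ± 7.33 CPM in ventral control (SD, n = 3 each). Its log2 fold change was -1.04 ± 0.16 (edgeR adjusted p = 0.0045). CACNG6, a gamma subunit of calcium channels, averaged 1.93 ± 0.684 and 1.81 ± 0.293 CPM in dorsal stress and control, against 0.562 ± 0.367 and 0.266 ± 0.0952 CPM in ventral stress and control (SD, n = 3 each), a log2 fold change of 2.29 ± 0.38 (edgeR adjusted p = 0.006935). Both kept their calls in all 23 alternatives.

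The other partner calls were weaker. FGF13, which binds the tail of sodium channel pores inside the cell, averaged 309.5 ± 72.1 and 276 ± 79.8 CPM in dorsal stress and control, against 171 ± 43.8 and 135 ± 34.6 CPM in ventral stress and control (SD, n = 3 each). Its log2 fold change of 0.96 ± 0.19 (edgeR adjusted p = 0.02025) passed in 15 of 23 alternatives. It was lost without dorsal stress 2 or 3, dorsal control 2 or 3, or ventral control 2 (edgeR adjusted p up to 0.0659), and with choroid plexus or neuron markers in the model (0.2569 and 0.05079), and without ventral control 1 and 3 together (0.05236). RIMS3, an active zone protein that binds calcium channel beta subunits, had -0.90 ± 0.20 (edgeR adjusted p = 0.02865) and passed in 13 of 23. It was lost without any of the dorsal stress libraries, dorsal control 1 or 2, ventral stress 2 or 3, or ventral control 2 (edgeR adjusted p up to 0.07396). It was also lost with neuron markers in the model (edgeR adjusted p = 0.05591) and without ventral control 1 and 3 together (0.0978). By list, 1 of 17 partners of sodium channels at the axon initial segment and node was called, 3 of 22 partners of calcium channels, 0 of 5 genes of the sodium leak channel complex and 0 of 5 calcium release channels.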

How the data were processed

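The authors deposited whole gene counts for the 12 libraries in 1 table, 1 column per library, joined to the samples through the labels' description field. TriReagent was used to extract RNA and the TruSeq stranded mRNA kit to make libraries, per the labels' protocols. The submitters' processing notes name featureCounts 2.0.0, TopHat2 2.1.1 with Bowtie2 2.3.5.1, bcl2fastq 2.20, SAMtools 1.9 and FastQC. The sources used here do not give the strand setting, the annotation or build, or how multiply matching reads were treated, so gene positions are not printed, reads of a gene and an antisense or overlapping gene cannot be told apart, and reads shared between related channel genes may be split. The RefSeq gene table of sheep used for names lists an uncharacterised locus and a tRNA gene that overlap CACNA2D2, and none that overlaps CACNA1S. It holds SCN3A, CACNA1E and SCN10A only under placeholder names, so these symbols rest on the count table.

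Counts were filtered with filterByExpr by group, scaled by TMM and fitted in R 4.3.3 with edgeR 4.0.16 (robust quasi-likelihood model, 1 mean per group). Levels are CPM of the library total, without TMM factors. There were 7 comparisons. SE is the absolute log2 fold change over the square root of F. Log2 CPM used a prior count of 2. The fit was tested on simulated data. Those libraries were drawn independently, so the simulation cannot check the effect of ewes shared between regions. All pairs of libraries in a group differed beyond counting noise. No label says that pools with the same number share ewes across regions, and p-values measure the spread between pools. Same-numbered dorsal stress and control libraries deviated together in all 3 pairs (r from 0.2846 to 0.7123 across genes), and so did ventral ones (0.241 to 0.7872), so stress was also fitted with the number as a block, which changed no call of a channel gene. Between regions some pairs had negative r. Alternatives were RLE size factors, no filter, 1 CPM in 3 libraries, DESeq2 1.42.0, limma-voom 3.58.1, 2 kinds of block, thinned counts, covariates for choroid plexus and neuron markers, each library left out, and, chosen after seeing the data, ventral control 1 and 3 left out together.

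By rule, channel genes called in any comparison have all 12 levels printed, other channel genes have values where the unadjusted p was under 0.05 or the gene is a main brain isoform, and partner genes are named where called, up to 4 per list. Values of other channel genes (the beta subunits, sparse pores, CACNA2D1 and CACNB2, and those whose dorsal stress and control libraries did not overlap) were chosen after they were seen. Channel genes counted but not named are not reported here. The members and lists were chosen with earlier results of these data known.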

Additional observations from a re-analysis of the deposited data

How the results depend on the processing

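Between regions over both conditions, 3 channel genes were called in the main analysis, 1 with no filter, 1 with a replicate block within condition, 1 with the neuron covariate and 9 with the choroid plexus covariate, and 1 to 2 when 1 library was left out. CACNA2D2 was called in each of these. With the choroid plexus covariate 3868 of all tested genes were called, against 803 without. DESeq2 called 1558 of all tested genes, the replicate block 1375 and the neuron covariate 532. In stressed ewes 0 channel genes were called, against 2 by DESeq2, 1 with the replicate block, 1 without ventral control 1 and 3 together and 0 to 1 with 1 library left out. In control ewes 1 was called, against 2 by DESeq2, 0 with a replicate block within condition, 0 with either covariate, 0 without ventral control 1 and 3 together and 0 to 1 with 1 library left out. Over all tested genes DESeq2 called 580 and 728 in stressed and control ewes and the replicate block 314 and 440, against 79 and 178. Of the partner genes 4 were called between regions, against 8 by DESeq2, 9 with the replicate block, 17 and 2 with the choroid plexus and neuron covariates and 2 to 6 with 1 library left out. The cause of these changes was not tested.

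With the replicate block 4 channel genes were called between regions, SCN9A beside the 3, and it changed no other call of a channel gene over both conditions. Of 18 same-numbered pairs of libraries 14 had an r above 0.1, and 9 of 12 libraries correlated best with one of their own number. Whether the numbers pair the regions cannot be decided from this. Same-numbered stress and control pools, which hold different ewes, deviated together too. All stress comparisons and the difference of stress effects gave 0 channel genes in every alternative run. CACNB4 in control ewes had a log2 fold change of -2.89 with all libraries and 0.094 without ventral control 3, and from -3.43 to 0.094 over the libraries left out in turn. Of 185 uncalled fold changes of channel genes 119 changed sign in at least 1 of 23 alternatives, so no direction is drawn from them. The block within condition cannot give a stress effect and was not run for it. Depth limits CACNA1S, SCN9A, SCN7A, SCN11A and CACNB4, which have fewer than 20 counts in at least 1 library.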
